A study of Mus musculus with 34 samples.

Results

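The genes described here are 42 genes of the cell division programme, 24 of DNA replication and 18 of mitosis, out of 24505 gene names in the table for Lck-Cre mice. They were taken as a list of symbols, and all 42 were found and passed the filter on low values. RNA was sequenced from double-negative (DN) thymocytes, which lack CD4 and CD8, of mice on the C57BL6/J background with Lck-Cre and yellow fluorescent protein (YFP). Controls with Bcl11b +/+ (WT) were sorted as YFP-CD25+ DN2 cells (4 libraries) and YFP+CD25+ DN3 cells (5 libraries). Mice with Bcl11b flx/+ (HET) gave 5 DN2 and 6 DN3 libraries sorted in the same way, and mice with Bcl11b flx/flx (HOM) gave 5 libraries of YFP+CD25+ cells, for which the labels name no DN stage. All groups carried Lck-Cre, a recombinase driven by the promoter of the T-lineage gene Lck, and the DN2 libraries were sorted from YFP-negative cells. Stage and reporter therefore change together between DN2 and DN3. No age, sex or number of animals per library is given in the sources used here, and the p-values below measure the spread between the libraries, which may be technical.

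DNA replication begins with licensing. The origin recognition complex (with Orc1), Cdc6 and Cdt1 load the ring-shaped helicase made of the Mcm2 to Mcm7 proteins onto DNA, and the E2F factors E2f1 and E2f2 turn on many of the genes involved as cells pass from G1 into S phase. The mitosis genes rise later, in G2 and M phase, and encode the cyclins and kinases that start mitosis and the proteins that build the spindle and separate the chromosomes. In the thymus, DN2 cells divide, DN3 cells largely stop dividing while they rearrange the T cell receptor beta locus, and cells that pass this checkpoint divide again. Bcl11b is a zinc-finger transcription factor that is switched on during DN2 and is needed for commitment to the T lineage. In bulk RNA, a larger share of cells in a phase of the cycle and more RNA per cell cannot be told apart.

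The start regions of some of these genes are shown because replication and mitosis genes differ in the short motifs they hold there, while their transcripts were measured side by side. RefSeq start regions (GRCm38.p6, 250 bases before to 50 bases after the gene's start) were matched for 34 of the 42 genes, with several windows for 2 of them, E2f2 and Mcm7. An E2F-type motif (TTTCCCGC, TTTCGCGC, TTTGCCGC or TTTGGCGC, on either strand) was found for 10 of 20 replication genes (50%), for 1 of 14 mitosis genes (7.14%) and for 2.6% of all 27025 genes with a window. The letters TTTGAA on either strand, the core of the cell cycle homology region (CHR), were found for 2 of 20 replication genes (10%), 10 of 14 mitosis genes (71.4%) and 20.2% of all genes. The CCAAT box on either strand was found for 15 of 20 replication genes (75%), 13 of 14 mitosis genes (92.9%) and 41.1% of all genes. A match describes the letters in a window and is not shown to be a bound site. The 6 windows below are written 5′ to 3′ on the strand of the gene, with the letters of these motifs in capitals, which may touch or overlap, and belong to Mcm5 (chr8:75109259-75109558, plus strand), Cdt1 (chr8:122567765-122568064, plus strand), the upstream start of E2f2 (chr4:136172024-136172323, plus strand), Mcm2 (chr6:88898731-88899030, minus strand), Cdk1 (chr10:69352863-69353162, minus strand) and Plk1 (chr7:122159185-122159484, plus strand).
Mcm5: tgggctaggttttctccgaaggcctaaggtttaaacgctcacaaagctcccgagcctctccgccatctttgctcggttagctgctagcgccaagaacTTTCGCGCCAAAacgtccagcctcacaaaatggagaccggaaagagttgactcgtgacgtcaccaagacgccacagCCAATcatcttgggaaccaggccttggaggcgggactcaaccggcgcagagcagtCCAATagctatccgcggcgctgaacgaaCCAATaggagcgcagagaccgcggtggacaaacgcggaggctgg
Cdt1: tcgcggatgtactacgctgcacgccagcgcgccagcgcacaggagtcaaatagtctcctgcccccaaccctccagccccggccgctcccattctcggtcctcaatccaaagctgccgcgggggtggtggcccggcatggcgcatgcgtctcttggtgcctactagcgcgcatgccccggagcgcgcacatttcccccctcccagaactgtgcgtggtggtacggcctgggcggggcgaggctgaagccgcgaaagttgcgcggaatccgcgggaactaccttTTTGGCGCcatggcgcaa
E2f2: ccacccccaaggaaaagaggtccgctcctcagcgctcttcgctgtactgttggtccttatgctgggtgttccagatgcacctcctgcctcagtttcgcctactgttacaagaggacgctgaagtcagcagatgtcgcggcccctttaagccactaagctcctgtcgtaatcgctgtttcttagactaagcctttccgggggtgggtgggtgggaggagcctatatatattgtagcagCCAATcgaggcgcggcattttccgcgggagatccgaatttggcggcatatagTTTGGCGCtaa
Mcm2: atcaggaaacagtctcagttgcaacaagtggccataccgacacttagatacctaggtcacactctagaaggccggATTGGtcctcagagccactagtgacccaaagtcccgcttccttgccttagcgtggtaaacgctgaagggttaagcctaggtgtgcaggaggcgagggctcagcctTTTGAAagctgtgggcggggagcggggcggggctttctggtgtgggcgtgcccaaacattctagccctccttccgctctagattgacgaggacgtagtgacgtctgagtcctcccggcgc
Cdk1: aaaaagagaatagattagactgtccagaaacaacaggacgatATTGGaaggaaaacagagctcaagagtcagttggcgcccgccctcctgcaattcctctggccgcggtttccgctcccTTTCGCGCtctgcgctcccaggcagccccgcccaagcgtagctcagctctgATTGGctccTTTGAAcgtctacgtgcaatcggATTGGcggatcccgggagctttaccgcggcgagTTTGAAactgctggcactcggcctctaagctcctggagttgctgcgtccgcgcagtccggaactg
Plk1: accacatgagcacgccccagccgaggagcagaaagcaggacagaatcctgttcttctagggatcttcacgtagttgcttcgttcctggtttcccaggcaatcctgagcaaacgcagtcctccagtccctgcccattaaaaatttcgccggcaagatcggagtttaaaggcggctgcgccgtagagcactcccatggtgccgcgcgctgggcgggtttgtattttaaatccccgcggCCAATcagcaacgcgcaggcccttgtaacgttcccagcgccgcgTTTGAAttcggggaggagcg
Mcm5 holds 2 E2F-type matches and 3 CCAAT boxes, and Cdt1 holds 1 E2F-type match and no other. The E2f2 window holds 1 E2F-type match and 1 CCAAT box. Mcm2, called in 3 of the comparisons below, holds no E2F-type match, 1 CHR-type match and 1 CCAAT box. Cdk1 is the only mitosis gene with an E2F-type match (1), beside 2 CHR-type matches and 3 CCAAT boxes, and Plk1 holds 1 CHR-type match and 1 CCAAT box.

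Library totals ran from 15772841 to 43023083 counts, with a median of 25074156, and the lowest count of any of the 42 genes in a library was 292. Bcl11b itself was at 33.1 to 58.4 RPKM (counts scaled by gene length and library total) in HOM, below every other library, of which the lowest was at 89.2. The counts are over the whole gene and not over a deleted part. The stage labels were checked with Kit, a receptor of early progenitors, which was at 18 to 30.5 RPKM in WT DN2 and 7.43 to 15.6 in WT DN3. Kit was at 18.4 to 28 in HET DN2 and 5.91 to 17.2 in HET DN3, and was highest in HOM, at 33.9 to 59.4. Other genes separated the stages less. Ptcra overlapped between WT DN2 (40.8 to 74.9) and WT DN3 (64.3 to 124), and between HET DN2 (45.5 to 84) and HET DN3 (37.9 to 97.5). Cd44 was at 15.8 and 17 RPKM in HET DN3 replicates 1 and 2, near HET DN2 replicates 1 and 2 (17.2 and 15.1). Clu, an epithelial gene, was high in 6 libraries, namely replicates 1 and 2 of HET DN2 and replicates 2 and 3 of both HET DN3 and HOM, where it was at 132.7 to 1276 CPM (counts scaled by library total alone), against at most 1.296 in the other 19. Their summed epithelial markers (8 genes) were at 360.1 to 3284 CPM, against 14.52 to 55.77. Counts of calls and list medians in comparisons that use these 6 libraries are given with and without them, and single levels and fitted changes with them unless stated. A further 2 libraries stood apart in other markers. HET DN3 replicate 1 had the haemoglobin gene Hbb-b1 at 194.2 CPM, against at most 0.896 in the other HET DN3 libraries, and Cd4 at 247.5 CPM, against at most 36.5. WT DN2 replicate 2 had Cd4 at 213.8 CPM and Cd8a at 63.3, against at most 11.45 and 2.82 in the other WT DN2 libraries.

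Levels differed more between genes than between groups. Pcna, the sliding clamp that holds polymerases on DNA, was the most abundant of the 42 per length, with a mean over the 5 groups of 473 RPKM, followed by the helicase subunit Mcm7 with 216. Top2a, the topoisomerase that untangles chromosomes, had the highest level of the mitosis genes. The lowest levels were those of the origin recognition subunit Orc1 (7.88 RPKM) and the kinetochore protein Cenpf (12.6 RPKM).

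The mitosis genes varied more between libraries of the same group than the replication genes. The pooled standard deviation within groups, on the log2 CPM scale, had a median of 0.257 over the 24 replication genes (0.147 to 0.39) and of 0.493 over the 18 mitosis genes (0.421 to 0.587), against 0.21 over all 12289 genes tested. The least variable mitosis gene, Bub1b (0.421), a kinase-related protein of the spindle checkpoint, was more variable than the most variable replication gene, Rrm2 (0.39), a subunit of ribonucleotide reductase. The medians without the 6 Clu-high libraries were 0.149 for replication, 0.324 for mitosis and 0.186 for all genes tested, and the lists then overlapped, with a lowest mitosis SD of 0.224 (Aurkb) and a highest replication SD of 0.29 (Orc1). The fitted standard errors differ accordingly, with a median of 0.161 for replication and 0.302 for mitosis in the wild-type stage step.

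Summed over the list, the replication genes ran from 2986 CPM in HET DN2 replicate 2 to 6319 in WT DN3 replicate 2, and the mitosis genes from 1221 CPM in HET DN2 replicate 2 to 5400 in HOM replicate 4. HET DN2 replicate 2 is a Clu-high library, and the next lowest sums were 4300 and 2201 CPM, both in HET DN3 replicate 3. Outside the 6 Clu-high libraries the lowest were 4498 CPM in WT DN2 replicate 2 and 2581 in WT DN2 replicate 4. The ratio of the mitosis sum to the replication sum ran from 0.409 to 0.995, or from 0.513 outside the 6 Clu-high libraries, and each of the 5 groups held libraries under 0.6 and over 0.7. In WT, replicates 3 and 4 had the lower ratios at both stages (0.602 and 0.557 in DN2, 0.598 and 0.547 in DN3), and replicates 1 and 2 the higher ones (0.772 and 0.749 in DN2, 0.751 and 0.827 in DN3). WT DN3 replicate 5, which has no WT DN2 library of the same number, was at 0.759.

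**Figure D1:**
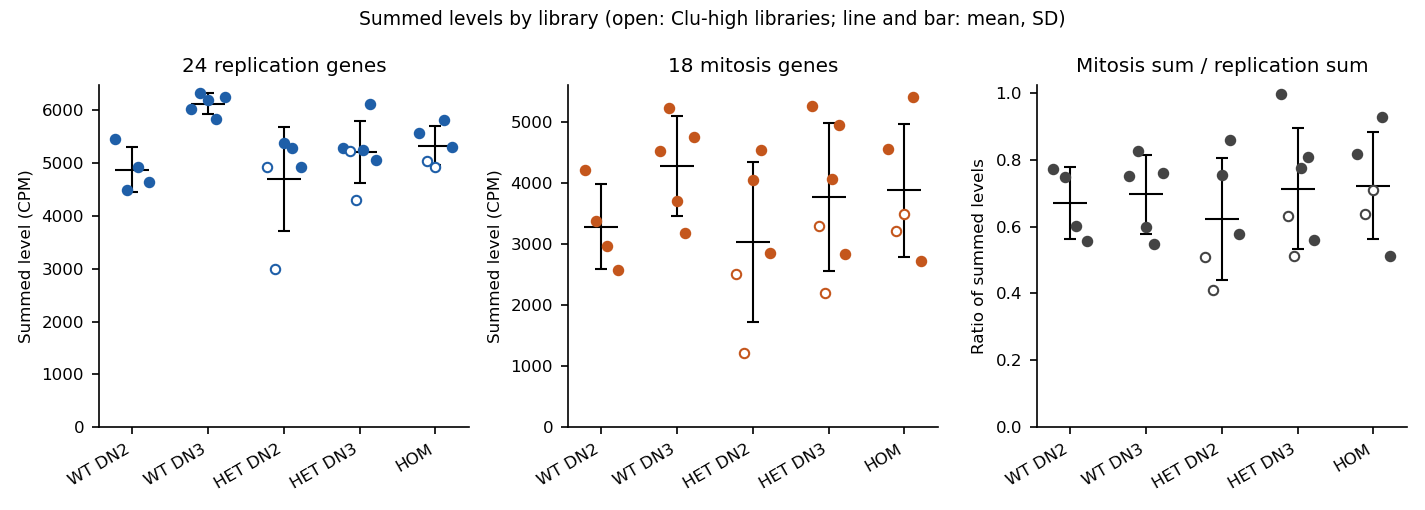
Summed CPM of the 24 replication genes (left) and the 18 mitosis genes (middle) and the ratio of the sums (right) in each of the 25 libraries by group, with the 6 Clu-high libraries as open points and the mean and SD of each group in black. WT DN3 replication sums lie between 5826 and 6319 CPM, above the 4 WT DN2 libraries, while the mitosis sums of these groups overlap.

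The first comparison asks how the programme changes from DN2 to DN3 in cells with intact Bcl11b. All 42 genes had higher fitted levels in WT DN3 than in WT DN2, with a median log2 change of 0.38 for replication and 0.49 for mitosis, against -0.05 over all genes tested. In the fit of all 25 libraries (edgeR's quasi-likelihood test, Benjamini-Hochberg adjustment over 12289 genes, called where the adjusted p is under 0.05), 6 of 24 replication genes (25%) were called higher and no mitosis gene was, against 10.2% of all genes called higher and 10.7% called lower. At an unadjusted p under 0.05 the counts were 15 replication genes (62.5%) and 7 mitosis genes (38.9%), against 34.2% of all genes. The 34.2% counts changes in both directions, whereas all of these member changes were increases, so the shares are not like for like. Every WT DN3 library was above every WT DN2 library for 15 replication genes and 4 mitosis genes, against 12.4% of all genes. The 4 were the cyclin Ccna2, the kinases Plk1 and Aurkb, and Birc5, the partner of Aurkb in the chromosomal passenger complex.

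Same-numbered WT DN2 and WT DN3 libraries correlated at 0.171 to 0.609 in their deviations from group means. WT DN3 replicate 1 correlated more with WT DN2 replicate 2 (0.321) than with WT DN2 replicate 1 (0.171). The labels do not say that equal numbers mark pairs. After these values were seen, the replicate number was also fitted as a block, in a fit of these 2 groups alone. There 37 of 42 genes rose, 22 in replication and 15 in mitosis, against 23.6% of all genes called higher. The 5 without a call were Gins1, Prim1, Mki67, Cenpe and Cenpf. In the same 2 groups without the block 32 genes were called (20 and 12), against 19.9% of all genes. Without the 6 Clu-high libraries, none of which belongs to these 2 groups, 28 genes were called (18 and 10), against 15.5% of the 11999 genes then tested. The fitted changes hardly moved, with medians of 0.41 for replication and 0.52 for mitosis. With the block in the fit of all 5 groups the count was 4, and all 4 were among the 6. At each replicate number, the replication sum was higher in DN3, by 1.1, 1.4, 1.26 and 1.26 times for replicates 1 to 4. The mitosis sum was higher by 1.07, 1.55, 1.25 and 1.23 times.

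**Figure D2:**
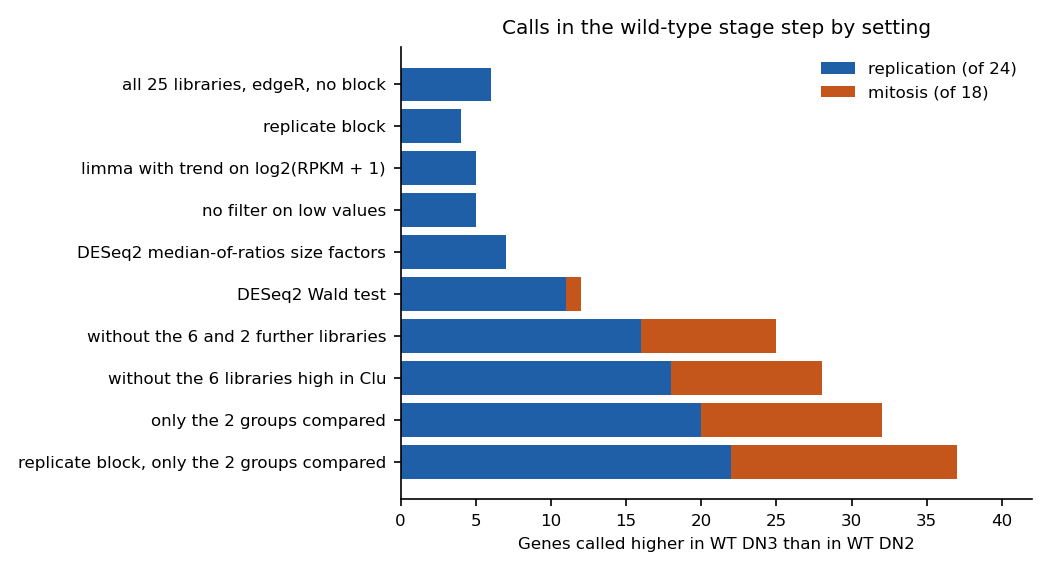
Number of replication genes (blue, of 24) and mitosis genes (orange, of 18) called higher in WT DN3 than in WT DN2 under 10 settings, on the horizontal axis. The count runs from 4 with the replicate block in the fit of all groups to 37 with the block in the fit of the 2 groups alone, and mitosis genes are called only by the DESeq2 test and in the 4 settings with fewer libraries.

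Of the helicase subunits, Mcm2 (chr6:88833468-88848774, minus strand, mm9 coordinates as in the deposited table) was at 152, 113, 139 and 140.1 RPKM in WT DN2 and at 176, 175, 195, 180.5 and 192 in WT DN3. The groups did not overlap, and the log2 change was 0.48 (SE 0.11, adjusted p = 0.00509). Mcm5 (chr8:77633408-77652338, plus strand) was at 132, 100.5, 116 and 112 RPKM in WT DN2 and at 153, 152, 164, 144 and 165 in WT DN3. Its log2 change was 0.48 (SE 0.15, adjusted p = 0.0278), again with no overlap. Mcm7 (chr5:138605817-138613090, minus strand) was at 237, 173, 208 and 200.3 RPKM in WT DN2 and at 252, 260.4, 257, 244 and 277 in WT DN3, with a log2 change of 0.38 (SE 0.12, adjusted p = 0.0257). Mcm3, Mcm4 and Mcm6 had log2 changes of 0.36, 0.25 and 0.15 that were not called. The largest change among replication genes was that of Mcm10 (chr2:4911770-4933837, minus strand), which helps to activate the loaded helicase. It was at 22.7, 14.7, 17.8 and 16.7 RPKM in WT DN2 and 29.9, 34.2, 29.2, 26.9 and 29.6 in WT DN3, and changed by 0.78 (SE 0.21, adjusted p = 0.012).

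Among the clamp and clamp loader genes, Rfc4 (chr16:23114021-23127803, minus strand), a subunit of the complex that loads Pcna, was at 29.3, 34.3, 28 and 23.8 RPKM in WT DN2 and 37.1, 41.3, 38.6, 40.04 and 38.1 in WT DN3. Its log2 change was 0.48 (SE 0.17, adjusted p = 0.0427). Chtf18 (chr17:25855975-25864360, minus strand), the large subunit of an alternative clamp loader that acts in sister chromatid cohesion, was at 23.7, 16.4, 19.1 and 17.3 RPKM in WT DN2 and 25.4, 27.2, 26.8, 25.3 and 26.2 in WT DN3, with a log2 change of 0.50 (SE 0.17, adjusted p = 0.0461). The calls of Rfc4 and Chtf18 were close to the threshold. They were kept in 2 and 1 of the 9 fits that each leave out a library of the groups compared, with adjusted p up to 0.133 and 0.115, whereas Mcm2 and Mcm10 were called in all 9. Mcm5 and Mcm7 lost their calls without WT DN2 replicate 2 or replicate 4 (adjusted p up to 0.0681 and 0.0693).

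Pcna (chr2:132075022-132078916, minus strand) was at 422, 418, 431 and 403 RPKM in WT DN2 and 516, 525, 582, 539.7 and 547 in WT DN3, with no overlap. Its log2 change of 0.42 (SE 0.16, adjusted p = 0.0658) passed the threshold with the block, at 0.44 (SE 0.06, adjusted p = 0.000542). Rrm2 (chr12:25393119-25399011, plus strand), which makes deoxyribonucleotides, was at 102, 93.7, 97.1 and 85.3 RPKM in WT DN2 and 134, 163, 142, 141 and 130.1 in WT DN3. Its log2 change was 0.63 (SE 0.24, adjusted p = 0.0606), and with the block 0.69 (SE 0.07, adjusted p = 0.000227). Cdt1 (chr8:125091915-125097030, plus strand) went from 79.2, 65.8, 64.3 and 59.5 RPKM to 86.9, 89.3, 82.9, 79.5 and 88.7, with WT DN2 replicate 1 just under the lowest DN3 library. Its log2 change was 0.39 (SE 0.17, adjusted p = 0.105), and with the block 0.41 (SE 0.06, adjusted p = 0.00142). E2f1 (chr2:154385136-154395628, minus strand) was at 33.9, 27.2, 33.4 and 31 RPKM in WT DN2 and 36.2, 36.4, 38.8, 41 and 34.5 in WT DN3, and E2f2 (chr4:135728189-135751971, plus strand) at 38.9, 31.4, 35.8 and 35.4 and 41.7, 44.3, 42, 41.9 and 40.3. Both E2F genes had log2 changes of 0.29, below the median of the list and not called, and of 0.35 and 0.33 with the block in the 2 groups alone, where both were called. Prim1, the small primase subunit, hardly moved, at 51, 56.3, 52 and 47.7 RPKM in WT DN2 and 50.5, 58.8, 52.7, 50.4 and 50.8 in WT DN3 (log2 change 0.07). Orc1, a licensing gene, was at 7.32, 7.86, 6.92 and 5.49 RPKM in WT DN2 and 8.66, 10.6, 8.57, 8.42 and 8.78 in WT DN3.

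The mitosis genes had the larger fitted changes and the wider error. Plk1 (chr7:129302949-129313398, plus strand), a kinase that drives mitotic entry and centrosome maturation, was at 46.5, 38.4, 35.1 and 28.9 RPKM in WT DN2 and 72.4, 76.7, 62.6, 55 and 73.1 in WT DN3. The groups did not overlap, and its log2 change was 0.91 (SE 0.35, adjusted p = 0.0691) in all libraries and 0.92 (SE 0.07, adjusted p = 5.543e-05) with the block, where Plk1 had the smallest adjusted p of the 42 genes. Cdk1 (chr10:68799383-68815660, minus strand), the kinase that starts mitosis, was at 30.2, 24.4, 24.3 and 19.4 RPKM in WT DN2 and 35.9, 44.7, 35.2, 28.8 and 42.4 in WT DN3. Its groups overlapped, since WT DN2 replicate 1 was above WT DN3 replicate 4, and it changed by 0.65 (SE 0.34, adjusted p = 0.187). With the block the log2 change was 0.62 (SE 0.09, adjusted p = 0.00116). The cyclin partner Ccnb1 (chr13:101548694-101556441, minus strand) was at 46.4, 33.9, 36.8 and 27.6 RPKM in WT DN2 and 65.3, 78.4, 54.7, 44.9 and 75.6 in WT DN3. WT DN2 replicate 1 was above WT DN3 replicate 4. Its log2 change was 0.86 (SE 0.37, adjusted p = 0.0961), and with the block 0.81 (SE 0.11, adjusted p = 0.000729).

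The other mitosis genes shown moved by differing amounts. The cyclin Ccnb2 was at 75.6, 57.1, 58.2 and 47.6 RPKM in WT DN2 and 73.7, 79.4, 62.8, 53.5 and 85 in WT DN3, and Cdc20, the activator of the anaphase-promoting complex, at 89.1, 63.9, 67 and 56.5 and 109, 115, 104, 78.5 and 131. Mki67 (chr7:142881471-142908062, minus strand), the chromosome surface protein used as a proliferation marker, was at 115, 90.8, 66 and 68.3 RPKM in WT DN2 and 114, 134, 78.5, 64.7 and 118 in WT DN3. Replicates 3 and 4 were the low ones at both stages, and the change was not called with or without the block. Top2a (chr11:98854261-98885503, minus strand) was at 178, 140.1, 132 and 108 RPKM in WT DN2 and 177, 209, 149, 132 and 181 in WT DN3, and changed by 0.32 (SE 0.30, adjusted p = 0.489). With the block the log2 change was 0.32 (SE 0.09, adjusted p = 0.0199). Cenpe, a kinetochore motor, had a log2 change of 0.01.

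**Figure D3:**
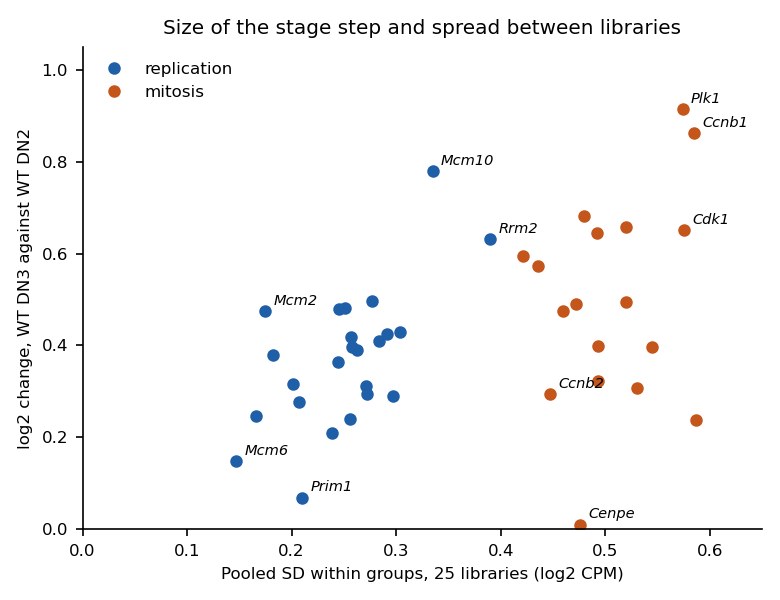
Each of the 42 genes by its pooled SD within groups (horizontal, log2 CPM) and its log2 change in WT DN3 against WT DN2 (vertical), replication in blue and mitosis in orange. All mitosis genes lie at an SD of 0.421 or more and all replication genes at 0.39 or less, and the largest changes are those of Plk1 (0.91, SD 0.574) and Ccnb1 (0.86, SD 0.585).

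Markers of cell types also differed between the wild-type stages. The summed level of 7 mature T cell markers was 319.6 to 565.1 CPM in WT DN3 and 901.5 to 1223 in WT DN2, with 2 of 7 wholly lower in DN3 and none at 0 in any of these libraries. The sum of 4 myeloid markers was 5.42 to 10.8 CPM in WT DN3 and 15.5 to 18.8 in WT DN2, with 1 of 4 wholly lower and Cd14 and Csf1r at 0 in at least 1 library. Hbb-b1 was at 0 to 2.84 CPM in WT DN3 and 4.22 to 10.8 in WT DN2. The sum of 7 DN thymocyte markers was 3911 to 4479 in WT DN3 and 4320 to 5320 in WT DN2, with 1 wholly higher, 3 wholly lower and none at 0. Their part in the stage step was not tested.

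In the same fit of all libraries, 10.2% of all genes were called higher in the wild-type stage step and 10.7% lower. Of 48 other replication genes, 11 rose in this step and none fell. The 3 with the smallest adjusted p were the polymerase delta subunit Pold2, with a log2 change of 0.67 (SE 0.12, adjusted p = 0.000433), the polymerase alpha subunit Pola2 with 0.42 (SE 0.10, adjusted p = 0.0065) and Dut, the dUTPase that keeps uracil out of DNA, with 0.59 (SE 0.16, adjusted p = 0.0103). Of 55 other mitosis genes, 53 were tested and 2 rose. They were Gtse1, which acts at microtubules in G2 and M phase, at 0.78 (SE 0.23, adjusted p = 0.021), and Cks1b, a small subunit of cyclin-dependent kinases, at 0.54 (SE 0.17, adjusted p = 0.0285).

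With 1 floxed allele the stage step was smaller in the fit. In HET DN3 against HET DN2, only Rfc4 rose among the 42 genes, against 5.36% of all genes called higher and 4.79% called lower. At an unadjusted p under 0.05 the count was 5 (11.9%), against 26% of all genes. Rfc4 was at 28.1, 20.8, 29.2, 29.1 and 35.3 RPKM in HET DN2 and from 30.5 to 48.6 with a median of 39.7 in HET DN3, with overlap, and its log2 change was 0.50 (SE 0.15, adjusted p = 0.0357). It lost its call without HET DN2 replicate 1 or 2 or HET DN3 replicate 1 or 5 (adjusted p up to 0.0871). The median log2 change was 0.15 for replication and 0.32 for mitosis. Without the 6 Clu-high libraries Rfc4 and Pcna were called, against 5.28% of all genes, with log2 changes of 0.49 (SE 0.15, adjusted p = 0.0406) and 0.28 (SE 0.09, adjusted p = 0.0454), and the medians were 0.06 and 0.18.

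The other genes with small adjusted p in this step had overlapping groups. Orc1 was at 6.6, 4.03, 6.99, 7.94 and 4.43 RPKM in HET DN2 and from 6.61 to 10.2 with a median of 8.37 in HET DN3, and its log2 change was 0.51 (SE 0.19, adjusted p = 0.089). Pcna was at 429, 235, 424, 438 and 472 RPKM in HET DN2 and from 373 to 572 with a median of 502 in HET DN3. Rrm2 was at 98.6, 38.5, 108, 118 and 86.3 RPKM in HET DN2 and from 77.6 to 157 with a median of 121 in HET DN3. In all of these HET DN2 replicate 2 was the lowest library. Of the other lists, 1 replication gene rose, against 5.36% of all genes called higher, and no mitosis gene was called. The gene that rose was Ccne1, the cyclin E1 that opens S phase, at 0.65 (SE 0.19, adjusted p = 0.033).

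The difference between the HET and WT stage steps was tested as an interaction. No member and no gene of the table was called (0% of all genes in either direction), and DESeq2 called no member. At an unadjusted p under 0.05 there were 2 members (4.76%), Chtf18 and Mcm2, against 1105 of all genes (8.99%). The median difference of the log2 changes, HET step minus WT step, was -0.21 for replication and -0.21 for mitosis, and 36 of 42 were negative. It was -0.31 and -0.39 without the 6 Clu-high libraries, again with no member called. Chtf18 had the smallest adjusted p, with a difference of -0.51 (SE 0.23, adjusted p = 0.549), followed by Mcm2 with -0.32 (SE 0.15, adjusted p = 0.549), Gins2, a subunit of the GINS complex that joins the active helicase, with -0.37 (SE 0.18, adjusted p = 0.564) and Cdt1 with -0.42 (SE 0.23, adjusted p = 0.609). Gins2 was at 43.2, 40.7, 37.1 and 37 RPKM in WT DN2, 39.6, 48.1, 52.4, 45 and 53 in WT DN3 and 56, 31.2, 46.8, 41.7 and 36.8 in HET DN2, and ran from 33.2 to 46.5 with a median of 41 in HET DN3. The steps share no library.

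Before the step, HET and WT cells did not differ by a call. In HET DN2 against WT DN2, no member and no gene was called by edgeR (0% of all genes in either direction), and DESeq2 called no member. No member had an unadjusted p under 0.05, against 934 of all genes (7.6%). The median log2 change was -0.04 for replication and -0.13 for mitosis with all libraries. It turned to 0.12 and 0.24 without the 6 Clu-high libraries, of which HET DN2 replicates 1 and 2 are part. The smallest adjusted p among the members was that of E2f2, which was at 25.3, 16.8, 39.6, 40.6 and 29 RPKM in HET DN2 (log2 change -0.23 (SE 0.19, adjusted p = 0.864)), with replicates 1 and 2 lowest. Cdc20 was at 42.7, 23.1, 87.7, 83.1 and 55.2 RPKM in HET DN2 and Cdt1 at 52.5, 41.2, 76.4, 70.04 and 67.8, and in both replicates 1 and 2 were again the lowest. The same 2 libraries were the lowest for Cdk1 (18.1, 5.8, 31, 31.4 and 25 RPKM), Ccnb1 (18.4, 11.4, 49.4, 48.9 and 32.4 RPKM) and Plk1 (21, 10.5, 49.9, 52.6 and 31.9 RPKM).

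The comparison of HET DN3 with WT DN3 sets mice with 1 floxed allele against wild type at the same stage and sort. Bcl11b itself overlapped between these groups, at 92 to 123 RPKM (median 99.2) in HET DN3 and 89.2 to 125 (median 104) in WT DN3. Here 4 of 24 replication genes (16.7%) fell and no mitosis gene was called, against 3.16% of all genes called lower and 4.24% called higher. The median log2 change was -0.23 for replication and -0.34 for mitosis, and 38 of 42 changes were negative, against a median of 0.02 over all genes tested. The medians were -0.18 and -0.16 without the 6 Clu-high libraries. At an unadjusted p under 0.05 the counts were 10 (41.7%) and 1 (5.56%), against 29.8% of all genes. HET DN3 was wholly below WT DN3 for Mcm2, Chtf18 and E2f2, against 2.4% of all genes.

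Mcm2 ran from 128 to 166 with a median of 141 RPKM in HET DN3, below all WT DN3 libraries, and its log2 change was -0.41 (SE 0.10, adjusted p = 0.0303). Cdt1 ran from 44.8 to 83.8 with a median of 56.7 RPKM, with HET DN3 replicate 5 among the WT DN3 values, and its log2 change was -0.55 (SE 0.15, adjusted p = 0.0372). Chtf18 ran from 14.5 to 23.4 with a median of 19 RPKM and had a log2 change of -0.54 (SE 0.16, adjusted p = 0.0416). Mcm7 ran from 185 to 244 with a median of 203 RPKM, and its log2 change was -0.37 (SE 0.11, adjusted p = 0.0417). E2f2 ran from 21.7 to 38.5 with a median of 32.2 RPKM and E2f1 from 20.04 to 35.6 with a median of 30.2, with log2 changes of -0.51 (SE 0.17, adjusted p = 0.0569) and -0.39 (SE 0.15, adjusted p = 0.095). Cdk1 ran from 15.1 to 37.8 with a median of 27.8 RPKM, Ccnb1 from 23.9 to 70.05 with a median of 46.7 and Cdc20 from 40.8 to 111 with a median of 68.3. Each of these mitosis genes overlapped WT DN3, and Cdc20 had the largest fitted decrease of the 42, -0.62 (SE 0.27, adjusted p = 0.124). Mki67 ran from 59.5 to 150 with a median of 98.9 RPKM and Top2a from 91.2 to 225 with a median of 145, and both spanned the WT DN3 range.

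These calls rested on few libraries. Without the 6 Clu-high libraries Mcm2 alone was called, at -0.37 (SE 0.09, adjusted p = 0.0476), against 0.55% of all genes, and without the 2 further libraries, HET DN3 replicate 1 and WT DN2 replicate 2, no member was. In the 11 fits that each leave out 1 library of these groups, Mcm2 was called in 6, Cdt1 in 3, and Mcm7 and Chtf18 in 2. No member was called without WT DN3 replicate 3, 4 or 5 or HET DN3 replicate 1 or 3, 1 without WT DN3 replicate 1 or 2 or HET DN3 replicate 2, 2 without HET DN3 replicate 4 and 7 without HET DN3 replicate 5. The epithelial sum was 27.85 to 3284 CPM in HET DN3 and 43.4 to 49.9 in WT DN3, with Clu, Krt8, Krt19, Krt7, Krt5 and Krt14 at 0 in at least 1 library and none of 8 wholly above or below. Without HET DN3 replicate 1 alone, the library with high Hbb-b1 and Cd4, no member was called, and the part of this RNA in the result was not tested. With all libraries, 3.16% of all genes were called lower and 4.24% higher. Of the other lists, Pold2 (-0.43 (SE 0.10, adjusted p = 0.029)) and the chromatin assembly factor subunit Chaf1a (-0.36 (SE 0.11, adjusted p = 0.0493)) fell there. The origin recognition subunit Orc4 (0.45 (SE 0.12, adjusted p = 0.0377)) rose, and no mitosis gene was called.

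**Figure D4:**
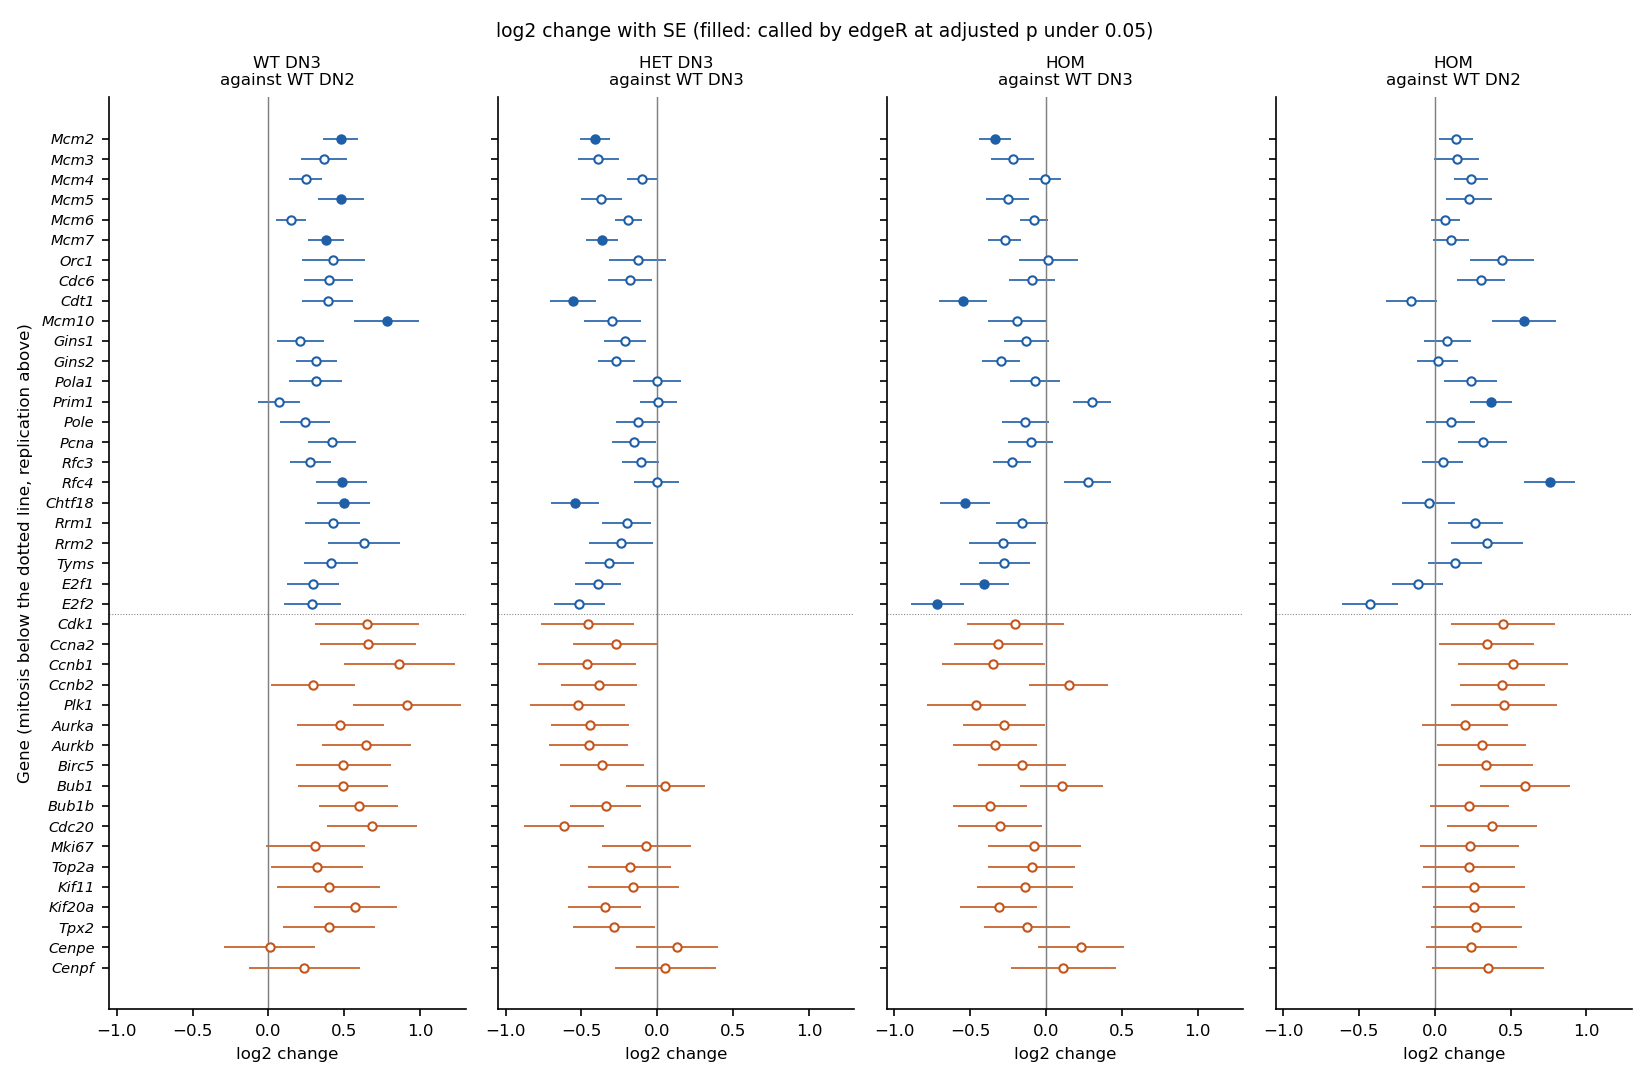
log2 change with its SE for the 42 genes (rows) in 4 comparisons (panels), replication in blue above the dotted line and mitosis in orange below it, filled where called. Filled points lie right of 0 in the wild-type stage step (6) and in HOM against WT DN2 (3) and left of 0 in HET DN3 (4) and HOM (5) against WT DN3, and all are replication genes.

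The comparison of HOM with WT DN3 sets Bcl11b flx/flx against wild type in YFP+CD25+ cells. The labels name no DN stage for HOM, and Kit was at 33.9 to 59.4 RPKM there, against 7.43 to 15.6 in WT DN3. Genotype and stage cannot be told apart in this comparison. Among the 42 genes 5 fell, all of them replication genes (20.8% of 24), and none rose, against 17.9% of all genes called lower and 21% called higher. The share of replication genes called lower is near that of all genes, and that of mitosis genes, 0 of 18, is below it. DESeq2 called 7 members. At an unadjusted p under 0.05 the counts were 8 replication and 0 mitosis genes, against 48.7% of all genes. The median log2 change was -0.20 for replication and -0.18 for mitosis, against 0.03 over all genes tested, and -0.14 and -0.07 without the 6 Clu-high libraries.

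The 5 genes were the E2F factors E2f1 and E2f2, the licensing factor Cdt1, the clamp loader Chtf18 and the helicase subunit Mcm2. E2f2 was at 29, 26.6, 24.8, 23.7 and 24.4 RPKM in HOM against 40.3 to 44.3 in WT DN3, and its log2 change of -0.72 (SE 0.18, adjusted p = 0.00264) had the smallest adjusted p of the members. E2f1 was at 32.6, 27.5, 28.4, 23.9 and 29.1 RPKM in HOM, below every WT DN3 library, with a log2 change of -0.41 (SE 0.16, adjusted p = 0.047). Cdt1 was at 58.9, 62, 53.6, 52.9 and 66.6 RPKM, also below every WT DN3 library, with a log2 change of -0.55 (SE 0.16, adjusted p = 0.00939). Chtf18 was at 20.7, 17.3, 17.7, 16.9 and 18.1 RPKM with a log2 change of -0.54 (SE 0.16, adjusted p = 0.0128), and Mcm2 at 145, 136, 145, 145 and 159.6 RPKM with -0.34 (SE 0.11, adjusted p = 0.0158). HOM was wholly below WT DN3 for 7 replication genes, these 5 and Mcm5 and Mcm7, and for no mitosis gene, against 14.2% of all genes.

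Other members of the same complexes had no call. Mcm4 and Mcm6 had log2 changes of -0.01 and -0.08, and Mcm7, at 219, 209, 203, 215 and 226 RPKM, -0.27 (SE 0.11, adjusted p = 0.0538). Pcna was at 535, 442, 416, 640.3 and 496 RPKM in HOM and Rrm2 at 132, 104, 99.3, 156 and 90.3, and both overlapped WT DN3. Prim1 and Rfc4 went the other way. Prim1 was at 70.2, 57.8, 58.5, 77.4 and 61.4 RPKM, with a log2 change of 0.30 (SE 0.13, adjusted p = 0.0644), and Rfc4 at 52.8, 40.4, 38.7, 65.2 and 39.2 RPKM, with 0.28 (SE 0.16, adjusted p = 0.165). Without the 6 Clu-high libraries the same 5 genes fell, against 19.9% of all genes called lower, and Prim1 (0.38 (SE 0.09, adjusted p = 0.00318)) and Rfc4 (0.40 (SE 0.14, adjusted p = 0.0259)) rose, against 20.6% called higher. E2f2, Cdt1, Chtf18 and Mcm2 were called in all 10 fits that each leave out 1 library of these groups, and E2f1 in 3, with an adjusted p of up to 0.0933. The 3 are those without WT DN3 replicate 2 or 5 or HOM replicate 1.

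The mitosis genes of HOM spread around WT DN3. Cdk1 was at 44.1, 25.4, 26, 43.1 and 24.1 RPKM in HOM, Ccnb1 at 64.7, 39.1, 45, 68.3 and 33.6 and Plk1 at 64.9, 38.5, 46.7, 60.6 and 37, with replicates 1 and 4 high and replicate 5 low in each. Mki67 was at 109, 83.5, 84.1, 142 and 64.9 RPKM and Top2a at 184, 126, 148, 227 and 106, again highest in replicates 1 and 4 and lowest in replicate 5. Their log2 changes, from -0.46 for Plk1 to -0.08 for Mki67 among these 5, were not called. The sum of the double-positive and beta selection markers was 384 to 512.3 CPM in HOM and 590 to 673 in WT DN3, with 3 of 7 wholly lower, 1 wholly higher and none at 0, and the sum of 7 mature T cell markers was 485.7 to 960.3 against 319.6 to 565.1, with 3 wholly higher and none at 0. Their part in the result was not tested.

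**Figure D5:**
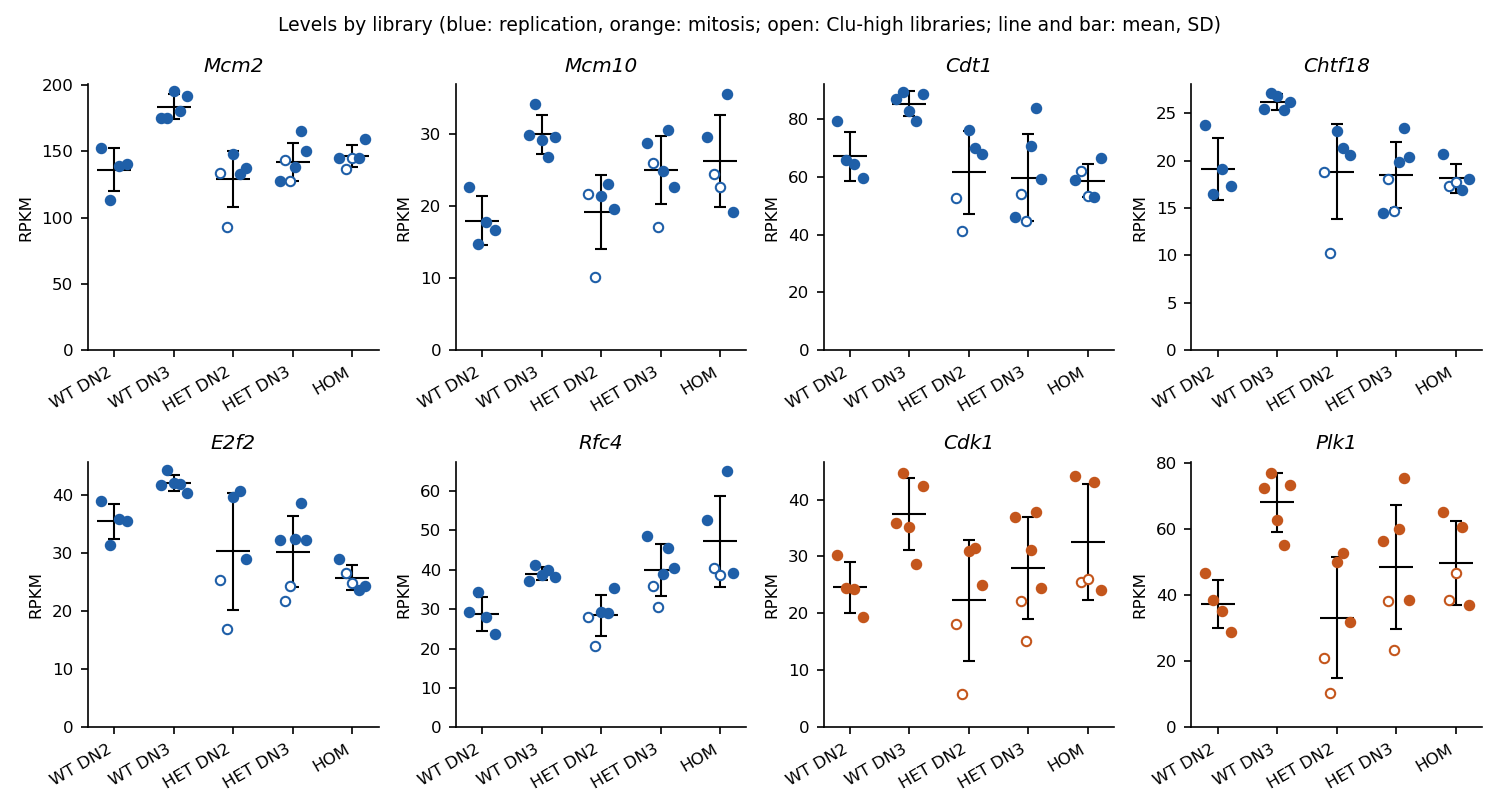
RPKM of 8 genes in each of the 25 libraries by group, replication in blue and mitosis in orange, with the 6 Clu-high libraries as open points and the mean and SD of each group in black. WT DN3 lies above all HOM libraries for Mcm2, Cdt1, Chtf18 and E2f2, while Cdk1 and Plk1 overlap between WT DN3 and HOM.

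The other lists were also mixed in HOM against WT DN3, where 21% of all genes were called higher and 17.9% lower. Both lists had smaller shares called in either direction. Of 48 other replication genes, 5 rose and 7 fell, led by Uhrf1, which recruits the maintenance DNA methyltransferase at the fork, at -0.60 (SE 0.10, adjusted p = 8.886e-05), the origin recognition subunit Orc5 at 0.62 (SE 0.11, adjusted p = 0.000123) and the repressor E2f7 at -1.79 (SE 0.46, adjusted p = 0.00363). Of the 53 tested other mitosis genes, 2 rose and 2 fell, led by the condensin subunit Smc4 at 0.53 (SE 0.10, adjusted p = 0.000138), the phosphatase Cdc25b at 1.04 (SE 0.23, adjusted p = 0.00123) and Mybl2, a transcription factor of the cell cycle, at -0.69 (SE 0.18, adjusted p = 0.00435).

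Against HET DN3, HOM had no called member, against 13.2% of all genes called higher and 11.9% called lower, and neither DESeq2 nor limma called one. At an unadjusted p under 0.05 there were 2 (4.76%), Prim1 and Ccnb2, against 36.4% of all genes. Both groups were sorted as YFP+CD25+ cells, but the labels name no DN stage for HOM. Genotype and stage cannot be told apart here either. The median log2 change was 0.06 for replication and 0.09 for mitosis, and 0.07 and -0.01 without the 6 Clu-high libraries. The smallest adjusted p was that of Prim1, which ran from 43.2 to 59.7 with a median of 56.3 RPKM in HET DN3 and had a log2 change of 0.29 (SE 0.12, adjusted p = 0.0817). Ccnb2 was at 94.2, 70.4, 66.9, 96.7 and 66 RPKM in HOM and ran from 36.2 to 81.3 with a median of 56.1 in HET DN3, with a log2 change of 0.54 (SE 0.25, adjusted p = 0.122). Rfc4 followed with 0.28 (SE 0.15, adjusted p = 0.182), and Mcm6, at 153, 147, 149, 148 and 161 RPKM in HOM and from 134 to 163 with a median of 139 in HET DN3, with 0.11 (SE 0.09, adjusted p = 0.389). Without the 6 Clu-high libraries Prim1 was called higher (0.33 (SE 0.10, adjusted p = 0.0182)), against 11.4% of all genes, and E2f2 lower (-0.38 (SE 0.11, adjusted p = 0.0175)), against 11.6%. With all libraries, 13.2% of all genes were called higher and 11.9% lower. Of the other replication genes, 4 rose and 1 fell there, led by Orc5 (0.48 (SE 0.10, adjusted p = 0.00155)), the polymerase epsilon subunit Pole3 (0.35 (SE 0.09, adjusted p = 0.00716)) and Uhrf1 (-0.37 (SE 0.10, adjusted p = 0.00835)). Of the other mitosis genes 2 rose, Cdc25b (1.00 (SE 0.22, adjusted p = 0.00156)) and Smc4 (0.31 (SE 0.09, adjusted p = 0.0153)).

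Against WT DN2, 3 of 24 replication genes (12.5%) rose in HOM and none fell, and no mitosis gene was called, against 20.8% of all genes called higher and 20.4% called lower. The members' shares were thus below those of all genes. HOM cells were sorted as YFP+CD25+ and WT DN2 cells as YFP-CD25+, and the labels name no DN stage for HOM. Genotype, reporter and stage cannot be told apart in this comparison. Rfc4 had a log2 change of 0.76 (SE 0.17, adjusted p = 0.00101), Mcm10 of 0.59 (SE 0.21, adjusted p = 0.0288) and Prim1 of 0.37 (SE 0.14, adjusted p = 0.0332). Mcm10 was at 29.6, 24.4, 22.7, 35.6 and 19.1 RPKM in HOM, with replicate 4 high and replicate 5 within the WT DN2 range. Rfc4 and Prim1 were wholly above WT DN2 (15.6% of all genes were) and E2f2 wholly below it (19.4%), with a log2 change of -0.43 (SE 0.18, adjusted p = 0.0694). All 18 mitosis genes had positive log2 changes, with a median of 0.32, and the median for replication was 0.14. The medians were 0.45 and 0.23 without the 6 Clu-high libraries.

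When the 6 Clu-high libraries were left out, 18 members were called in HOM against WT DN2. There 10 replication genes rose and 1, E2f2 (-0.41 (SE 0.11, adjusted p = 0.00535)), fell, and 7 mitosis genes rose, against 24.3% of all genes called higher and 21.3% called lower. The 7 were Bub1, Birc5, Cdk1, Ccnb2, Aurkb, Plk1 and Ccnb1, with log2 changes from 0.44 for Aurkb to 0.75 for Bub1, and the HOM group then held replicates 1, 4 and 5. With all libraries, Rfc4 was called in all 9 fits that each leave out 1 library, and Mcm10 and Prim1 in 4 each. The count was 1 without WT DN2 replicate 3 or 4 or HOM replicate 1 or 4. The mature T cell marker sum was 485.7 to 960.3 CPM in HOM and 901.5 to 1223 in WT DN2, with none of 7 wholly apart and none at 0. The double-positive and beta selection sum was 384 to 512.3 against 663.6 to 991.7, with 1 of 7 wholly lower and none at 0. Their part in the result was not tested. With all libraries, 20.8% of all genes were called higher and 20.4% lower. Of the other replication genes, 11 rose and 1 fell there, led by Orc5 (0.58 (SE 0.12, adjusted p = 0.000466)), the single-strand binding protein Rpa1 (0.63 (SE 0.13, adjusted p = 0.000486)) and Ccne1 (1.00 (SE 0.22, adjusted p = 0.000833)). Of the other mitosis genes 4 rose, led by Cdc25b (1.29 (SE 0.25, adjusted p = 0.000299)), the cytokinesis factor Ect2 (0.98 (SE 0.23, adjusted p = 0.00138)) and Cks1b (0.64 (SE 0.17, adjusted p = 0.00508)).

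HOM and HET DN3 are both compared with the same WT DN3 libraries, so their changes share controls and are given side by side only. Mcm2 had log2 changes of -0.34 in HOM and -0.41 in HET DN3, Cdt1 of -0.55 and -0.55, Chtf18 of -0.54 and -0.54, E2f2 of -0.72 and -0.51, and E2f1 of -0.41 and -0.39. The direct comparison of HOM with HET DN3 gave differences of 0.08 for Mcm2 (SE 0.10), 0.01 for Cdt1 (SE 0.15), 0.01 for Chtf18 (SE 0.16), -0.20 for E2f2 (SE 0.17) and -0.02 for E2f1 (SE 0.15), none of them called.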

How the data were processed

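The authors' deposited tables hold raw read counts per gene over exons, made with HOMER on mm9 and with 1 transcript kept per gene, per the file headers, although their names say RPKM. The submitters' processing notes also name Trimmomatic 033, STAR 2.4.0, RSEM 1.2.25 and edgeR 3.6.8. In 10 of the 25 Lck columns (WT DN2 and HET DN3) 26 Marc, March and Sept symbols have no value, so every later value stood beside another gene's name. Values were moved down past those symbols, in plain alphabetical order, which also placed 114 symbols (with Tyms) that the name column orders differently. Over these 114, the log-scale correlation with the 15 unaffected columns rose from 0.457 to 0.472 as deposited to 0.988 to 0.998. The 26 symbols were left out, and 24479 genes remained.

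Counts were tested with edgeR 4.0.16 in R 4.3.3 (quasi-likelihood test, TMM scaling, 25 libraries in 5 groups in 1 fit) over the 12289 genes whose group mean reached 1 RPKM in any group. Alternatives included limma 3.58.1 on log2(RPKM + 1) and DESeq2 1.42.0. RPKM and CPM were computed from the counts, lengths and library totals. The standard error is the log2 change divided by the square root of F. The tests were checked on simulated data. Replicates of a group differed by more than sampling noise in all 51 pairs.

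The labels number the replicates. The deviations from group means of same-numbered WT DN2 and WT DN3 libraries correlated at 0.171 to 0.609 in all 4 pairs (other numbers -0.386 to 0.321). The ranges overlap, and the labels do not say that equal numbers mark a shared animal or day. The block was chosen from these same values. No other comparison had every pair over 0.1.

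The members and lists were chosen with earlier results of these data known. Per-library values are given for Mcm2, Pcna, Cdt1, Rrm2, E2f1, E2f2, Cdk1, Ccnb1, Mki67, Top2a and the members with the 4 smallest adjusted p-values in each comparison, and of the other lists the 3 called genes with the smallest adjusted p-values are named. Plk1 and values outside this rule were added after the values were seen. The motifs were also chosen after the data were seen. The deposited counts for Vav1-iCre mice, which cover a part of the genes, were not used in the comparisons. Counting of strand is not given in the sources used here. The sums of 2 of the 7 marker lists are not reported here.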

Additional observations from a re-analysis of the deposited data

Results flagged for a closer look

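Values of 24 genes and sums were checked in each of the 5 groups (120 groups in all) for a library farther from the others than Dixon's 95% limit allows. There were 8 such values, and chance gives about 1 in 20 groups. In HET DN2, replicate 2 lay below the other 4 libraries for Mcm2 (92.7 RPKM, next 133), Mcm5 (62.7, next 114), Mcm6 (105, next 153), Mcm10 (10.2, next 19.6) and Pcna (235, next 424), and for the summed replication genes (2986 CPM, next 4920). This library is 1 of the 6 with high Clu. In WT DN3, replicate 2 lay above the other 4 for Orc1 (10.6 RPKM, next 8.78) and Prim1 (58.8 RPKM, next 52.7).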

How the results depend on the processing

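Counts of members called, of 42, changed most with the libraries in the fit. The share of all genes called changed too, so a larger count alone is no result about the members. In the wild-type stage step, 10.2% of all genes were called higher with all libraries and 15.5% without the 6. The share was 19.9% in the 2 groups alone and 23.6% with the block there. In HOM against WT DN3, 21% were called higher and 17.9% lower, and 20.6% and 19.9% without the 6. In WT DN3 against WT DN2 the count was 6, and it was 12 with DESeq2, 28 without the 6 Clu-high libraries, 25 without 2 further ones, 32 in the 2 groups alone and 37 with the replicate block there. It was 2 to 5 when single libraries were left out, with 3 without WT DN2 replicate 2 and 2 without WT DN2 replicate 4. In HOM against WT DN3 it was 5, with 9 without the 8 libraries, 11 in the 2 groups alone and 9 with the block there, and 4 to 5 over single libraries. In HET DN3 against WT DN3 it was 4, with 7 by DESeq2, 2 without a filter on low values, 2 by limma, 1 without the 6 libraries, 0 without the 8, 0 in the 2 groups alone, and 0 to 7 over single libraries. In HET DN3 against HET DN2 it was 1, with 2 without the 6, and 0 without the 8, in the 2 groups alone or with either block, and 0 to 2 over single libraries (0 without HET DN2 replicate 1 or 2 or HET DN3 replicate 1 or 5, 2 without HET DN2 replicate 4). In HOM against WT DN2 it was 3, with 1 without a filter, 18 without the 6, 16 without the 8, 5 in the 2 groups alone and 8 with the block there, and 1 to 4 over single libraries. In HOM against HET DN3 it was 0, with 2 without the 6 and 2 without the 8, and 0 over single libraries. In HET DN2 against WT DN2, and for the difference of the stage steps, it was 0 in every setting and over single libraries. The block in 2 groups was added after the data were seen. Where other causes are not given by the setting itself (fewer libraries or genes), the cause was not tested. The labels do not say that equal replicate numbers mark pairs in any comparison.

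Single values were compared between settings only for the genes picked by the rule for per-library values in each comparison, and not for every member. Among these genes, no called value changed sign, 82 values lost their call and 52 gained one among all settings. The counts of members above cover the whole list and are therefore not sums of these values. Values not called in either setting were not compared for sign. The lowest count of any member in a library was 292 (Orc1 in HET DN2 replicate 5).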

Other observations

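The table for Vav1-iCre mice lists a part of the genes. None of the 42 members is among them, and of the other lists it holds 1 of 48 replication genes, E2f7, and 1 of 55 mitosis genes, Cdc25b. In the Lck-Cre libraries E2f7 fell and Cdc25b rose in HOM against WT DN3, by log2 changes of -1.79 (SE 0.46, adjusted p = 0.00363) and 1.04 (SE 0.23, adjusted p = 0.00123) in edgeR's test. A gene not listed there has no value that could be compared.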
